A study of Mus musculus with 4 samples.

Results

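The genes described here make up the insulin-like growth factor (IGF) axis of the mouse: the ligands Igf1 and Igf2, the receptors Igf1r and Igf2r, and the binding proteins Igfbp2, Igfbp3, Igfbp4, Igfbp5, Igfbp6 and Igfbp7. They were chosen by symbol, 10 of the 32285 genes in the deposited tables, and all 10 passed the filter on low counts. IGF1 and IGF2 bind the receptor tyrosine kinase IGF1R, which signals through insulin receptor substrates, PI3 kinase and AKT, whereas IGF2R carries IGF2 to lysosomes. Binding proteins hold most IGF outside cells and set how much of it reaches the receptor, and proteases such as PAPP-A cut some of them and free the ligand. In bone, IGF1 made by mesenchymal cells and stored in the matrix is known for its part in bone formation, and IGFBP4 and IGFBP5 are known as products of bone cells.

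The measurements came from CITE-seq, in which the mRNA of single cells and their binding of an oligonucleotide-tagged antibody, here against CD24, are counted together. The 2 mice, 6 months (young) and 24 months (old) of age, were INK-ATTAC mice, which carry a caspase 8 cassette under the p16Ink4a promoter that a drug can switch on. Both carried the transgene and neither had been treated, so no group without it was compared. Marrow of femur and tibia was digested with Liberase and the bone with collagenase, blood lineage cells were depleted on magnetic beads, and live CD45- cells were sorted. There was 1 mouse per age, so a difference between the libraries cannot be told apart from a difference between 2 animals of any age.

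After the filters, 10063 young and 5607 old cells remained, with a median of 6385 and 9711 RNA UMIs (unique molecular identifiers, each counting 1 captured mRNA molecule). Cells were put in a group by the number of its 6 marker genes that they held, and 7440 young and 4016 old cells fell into 6 mesenchymal groups: marrow stromal (3199 young, 2017 old), fibroblast (2577, 1151), osteoblast (1134, 604), tendon (352, 147), chondrocyte (119, 33) and pericyte or smooth muscle (59, 64). No IGF gene was a marker. Each group had the highest summed level of its own list in both mice, with 1 exception. In the old chondrocyte group the osteoblast list reached 11467 CPM (UMIs of a gene or list divided by all UMIs of the group, on the usual CPM scale) and its own list 8074, against 6451 and 10290 CPM in the young group. Of the barcodes, 25 occurred in both libraries, and 19 of them in kept cells. Endothelial markers put no cell of either mouse in a group of their own.

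The binding proteins Igfbp3, Igfbp4 and Igfbp5 had their highest level in marrow stromal cells, and for that reason the 250 bases before their start sites are shown. In the comparison across groups given below, all 3 were higher there than the mean of the other groups, as were Igf1 and Igf2. For Igfbp5 the step to fibroblasts, the next group, did not pass. Sequences are from RefSeq on GRCm38.p6, the patch release of the mm10 build named in the submitters' processing notes, and each is printed 5′ to 3′ on the gene's strand. Igfbp3 (minus strand, chr11:7213924-7214173, 73.2% G or C) and Igfbp4 (plus strand, chr11:99040994-99041243, 69.2%) lie on chromosome 11, and Igfbp5 (minus strand, chr1:72874866-72875115, 58.8%) on chromosome 1. The median over 32851 mouse windows of this length was 52.4%. Capitals mark the 1 match to TATAAA.
Igfbp3: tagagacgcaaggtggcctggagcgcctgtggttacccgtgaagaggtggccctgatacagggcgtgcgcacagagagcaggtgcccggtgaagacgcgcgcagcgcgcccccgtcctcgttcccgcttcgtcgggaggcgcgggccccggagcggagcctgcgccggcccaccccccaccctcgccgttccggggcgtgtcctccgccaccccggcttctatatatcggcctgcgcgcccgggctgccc
Igfbp4: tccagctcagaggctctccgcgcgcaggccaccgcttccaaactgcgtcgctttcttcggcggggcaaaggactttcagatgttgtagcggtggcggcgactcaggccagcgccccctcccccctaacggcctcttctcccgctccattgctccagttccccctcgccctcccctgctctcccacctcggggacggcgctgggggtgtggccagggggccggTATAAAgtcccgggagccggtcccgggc
Igfbp5: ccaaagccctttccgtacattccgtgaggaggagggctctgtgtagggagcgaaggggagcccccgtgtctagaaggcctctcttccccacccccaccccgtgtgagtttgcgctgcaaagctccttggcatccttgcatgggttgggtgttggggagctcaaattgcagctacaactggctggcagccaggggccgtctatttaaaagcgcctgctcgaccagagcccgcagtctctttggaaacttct

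Both strands of these windows were searched for 3 short motifs. The letters TATAAA, the core of a TATA box, occurred 1 time in Igfbp4 and in neither Igfbp3 nor Igfbp5, and 12.4% of all windows held them. The letters GGGCGG, the core of a GC box, occurred in none of the windows of Igfbp3, Igfbp4 and Igfbp5, and 32.7% of all windows held them. The palindrome bound by EBF factors, of which Ebf3 marks marrow stromal cells, occurred in none of them either (0.779% of all windows). No match says only that these letters are not in this window, and 3′ counts do not show which start site was used. Igfbp5 lies next to Igfbp2, with 5590 bases between the genes (Igfbp2 at chr1:72824480-72852474 and Igfbp5 at chr1:72858065-72874865) and no protein-coding gene in that gap, yet their levels had their maximum in different groups, Igfbp2 in tendon and Igfbp5 in marrow stromal cells.

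Levels were compared across the mesenchymal groups on UMIs summed per mouse and group (12 sums), each group against the mean of the other 5, by the quasi-likelihood test of edgeR with a term for the mouse and Benjamini-Hochberg adjustment over 14113 genes. Marrow stromal cells were higher in 5 of the 10 IGF genes (25.6% of all genes tested were higher) and lower in 2 (16.9%). Tendon cells were higher in 5 (8.15%) and lower in 0 (2.64%), and fibroblasts were higher in 3 (16.1%) and lower in 1 (8.8%). Osteoblasts were higher in 1 (12.7%) and lower in 4 (7.56%), chondrocytes were higher in 0 (10.8%) and lower in 4 (7.74%), and pericytes or smooth muscle cells were higher in 2 (10.4%) and lower in 2 (8.16%). The median log2 difference of the 10 genes was 1.18 in the marrow stromal group (0.10 over all genes tested) and 1.01 in the tendon group (0.03), and it lay between -0.70 and 0.19 in the others (-0.16 to 0.07 over all genes). Between single pairs of groups, 89 of 150 differences passed (24.2% over all genes and pairs), 14 of 15 for Igf1 and 12 of 15 for Igfbp6, against 5 of 15 for Igf2r.

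**Figure D1:**
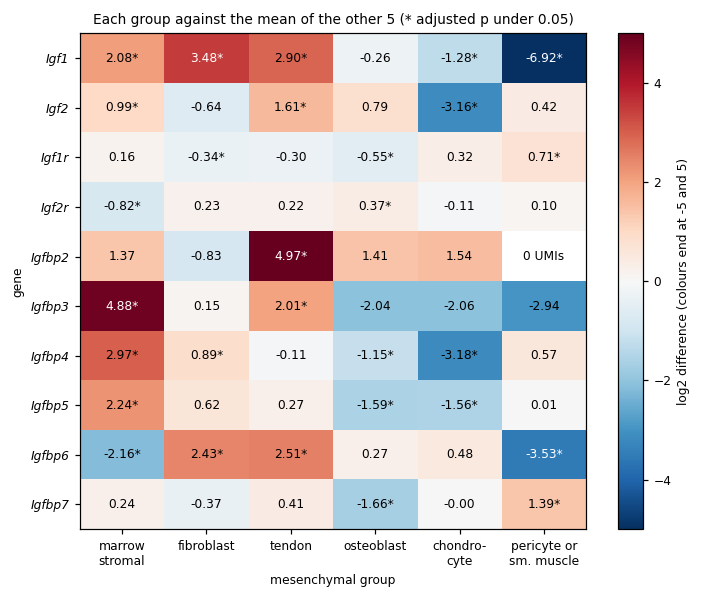
Log2 difference of each IGF gene (rows) in each mesenchymal group (columns) from the mean of the other 5 groups, fitted on both mice. Colour runs from blue (lower) to red (higher), an asterisk marks an adjusted p under 0.05, and the white cell of Igfbp2 in the pericyte or smooth muscle group is written as 0 UMIs. Igf1 is red in 3 groups (marrow stromal, fibroblast, tendon) and Igfbp3 to Igfbp5 reach their highest value in the marrow stromal column.

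Igf1, the ligand through which growth hormone acts on many tissues, was highest in fibroblasts. The young and the old mouse had 654 and 962 CPM in fibroblasts, 491 and 666 in tendon cells, 346 and 455 in marrow stromal cells, 96.8 and 77.5 in osteoblasts, 46.7 and 40.0 in chondrocytes, and 2.94 and 1.63 (1 UMI each) in pericytes or smooth muscle cells. The order was the same in both mice, and 4 of the 5 neighbouring steps passed the test, of which the step from tendon to marrow stromal cells was lost under 2 alternatives and that from osteoblasts to chondrocytes under 3. Fibroblasts and tendon cells did not differ beyond the spread of the mice (log2 difference 0.49 ± 0.19, SE, edgeR adjusted p = 0.121), and the step from marrow stromal cells to osteoblasts was 1.95 ± 0.19 (adjusted p = 1.71e-05, edgeR). Against the mean of the others, Igf1 was higher in fibroblasts (log2 3.48 ± 0.15, adjusted p = 7.16e-08, edgeR), tendon cells (2.90 ± 0.16) and marrow stromal cells (2.08 ± 0.17). These means include the pericyte or smooth muscle group, whose level rests on 2 UMIs. Igf1 was also lower in chondrocytes (-1.28 ± 0.32, edgeR adjusted p = 0.0173), a call lost when doublets were removed (log2 -1.09, adjusted p = 0.107, edgeR), after thinning (-0.72, adjusted p = 1) and with a lead of 2 markers (-0.16, adjusted p = 1), and in pericytes or smooth muscle cells (a fitted -6.92 ± 0.41).

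At an equal depth of 2000 UMIs per cell, 49.3% of young and 61.1% of old fibroblasts held an Igf1 UMI, against 12.1% and 9.81% of osteoblasts. In erythroid cells the share was 1.54% and 0.355%, and how much of it was free RNA in droplets was not tested. Osteoblast Igf1 was unevenly spread: the 10% of cells with the most UMIs held 83.6% of the young and 88.3% of the old UMIs of that group, against 46.9% and 42.7% in fibroblasts. Igf1 UMIs and UMIs of its receptor had no clear tie in marrow stromal cells. Of those with an Igf1 UMI, 18.4% (young) and 21.1% (old) held an Igf1r UMI, and of those without, 18.5% and 21.8%.

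Igf2, the fetal growth ligand transcribed from the paternal allele in most tissues, was spread more evenly than Igf1 across groups, apart from chondrocytes. Its levels were 79.9 and 69.1 CPM in tendon cells, 59.5 and 55.8 in marrow stromal cells, 48.0 and 39.9 in osteoblasts, 70.5 and 19.5 in pericytes or smooth muscle cells, and 15.9 and 24.6 in fibroblasts (young and old mouse). Chondrocytes had 7 young and 0 old UMIs, where a count of 0 allows up to 5.22 CPM. None of the 5 neighbouring steps in this order passed, whereas 7 of the 15 pairs did. Against the mean of the others Igf2 was higher in tendon cells (log2 1.61 ± 0.29, edgeR adjusted p = 0.00406) and marrow stromal cells (0.99 ± 0.26, adjusted p = 0.0106, edgeR), and lower in chondrocytes (-3.16 ± 0.67, adjusted p = 0.00702, edgeR). The old mouse alone, with its 0 in chondrocytes, gave 2.52, 1.99 and -7.32, values that depend on the prior count, and the marrow stromal call was lost with DESeq2 (adjusted p = 0.0560). After thinning to equal depth, the chondrocyte value was -1.66 (adjusted p = 0.164, edgeR) and the marrow stromal value 0.47 (adjusted p = 0.0974, edgeR), and both calls were lost.

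In osteoblasts few cells carried most Igf2. There, the 47 young and 33 old cells with at least 3 Igf2 UMIs held 63.0% and 80.6% of the group's Igf2, and H19 stood at 317 and 332 CPM in them against 36.6 and 24.3 CPM in the other osteoblasts. H19 is the maternally expressed RNA that lies 72621 bases from Igf2 on chromosome 7 and shares its imprinting control region. The depth of these cells was close to that of the others (a median of 6986 against 6508 young and 11315 against 12318 old UMIs). Postn, a periosteal matrix gene, stood at 2380 against 3267 CPM (young) and 1747 against 1565 CPM (old), in different directions in the 2 mice. The cells with at least 3 Igf2 UMIs held 34.6% (young) and 64.1% (old) of the Igf2 of fibroblasts and 50% and 60.2% of that of marrow stromal cells. Such marrow stromal cells had H19 at 48.2 against 5.09 CPM (young) and 58.8 against 19.7 (old), held by 4 and 7 of them. For tendon cells this was 200 against 71.1 and 640 against 96.6 CPM, held by 5 and 6. In fibroblasts H19 stood at 19.9 against 7.87 CPM (young) but was no higher in the old mouse (15.6 against 18.4). Postn was higher in such marrow stromal cells of both mice (459 against 69.8 and 265 against 30.8 CPM). It was lower in such fibroblasts and tendon cells of both mice. H19 and Postn in these cells were looked at after their values had been seen.

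Both receptors varied less between groups than the ligands. Igf1r, the signalling receptor, lay between 56.5 and 148 CPM in all groups of both mice, with the highest values in pericytes or smooth muscle cells (129 young, 148 old) and the lowest in osteoblasts (66.5, 56.5). The pericyte or smooth muscle group was higher than the mean of the others by 0.71 ± 0.13 on the log2 scale (edgeR adjusted p = 0.00251), and it differed from its neighbour, the marrow stromal group, by 0.46 ± 0.15 (adjusted p = 0.0425, edgeR, lost under 4 alternatives). Osteoblasts were lower by 0.55 (a log2 difference of -0.55 ± 0.10, adjusted p = 0.00299, edgeR) and fibroblasts by 0.34 (-0.34 ± 0.099, adjusted p = 0.0269, edgeR). After thinning to equal depth, none of these 3 calls passed (adjusted p = 0.150, 0.0953 and 0.126, edgeR). Erythroid cells had 15.8 and 15.9 CPM of Igf1r, against 74.9 and 75.8 CPM over all kept cells, a larger part of that level than for the binding proteins. How much of it was free RNA was not tested. Cells of the groups that are not mesenchymal held 9.36% and 11.7% of all Igf1r UMIs.

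Igf2r, the scavenger receptor for IGF2 and for lysosomal enzymes, was lowest in marrow stromal cells, with 65.8 CPM (young) and 70.7 (old). The other groups lay between 75.0 and 133 CPM and, apart from chondrocytes, their ranges overlapped. Marrow stromal cells were lower than the mean of the others by 0.82 on the log2 scale (a difference of -0.82 ± 0.12, edgeR adjusted p = 2.70e-04), and chondrocytes, their neighbour in the order, were higher than they were by 0.59 ± 0.17 (adjusted p = 0.0258, edgeR, lost under 2 alternatives). Osteoblasts were higher than the mean by 0.37 ± 0.11 (adjusted p = 0.0364, edgeR), a call lost under 4 of the alternatives, among them DESeq2 (adjusted p = 0.0656). The other neighbours in the order of Igf2r did not differ beyond their spread.

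**Figure D2:**
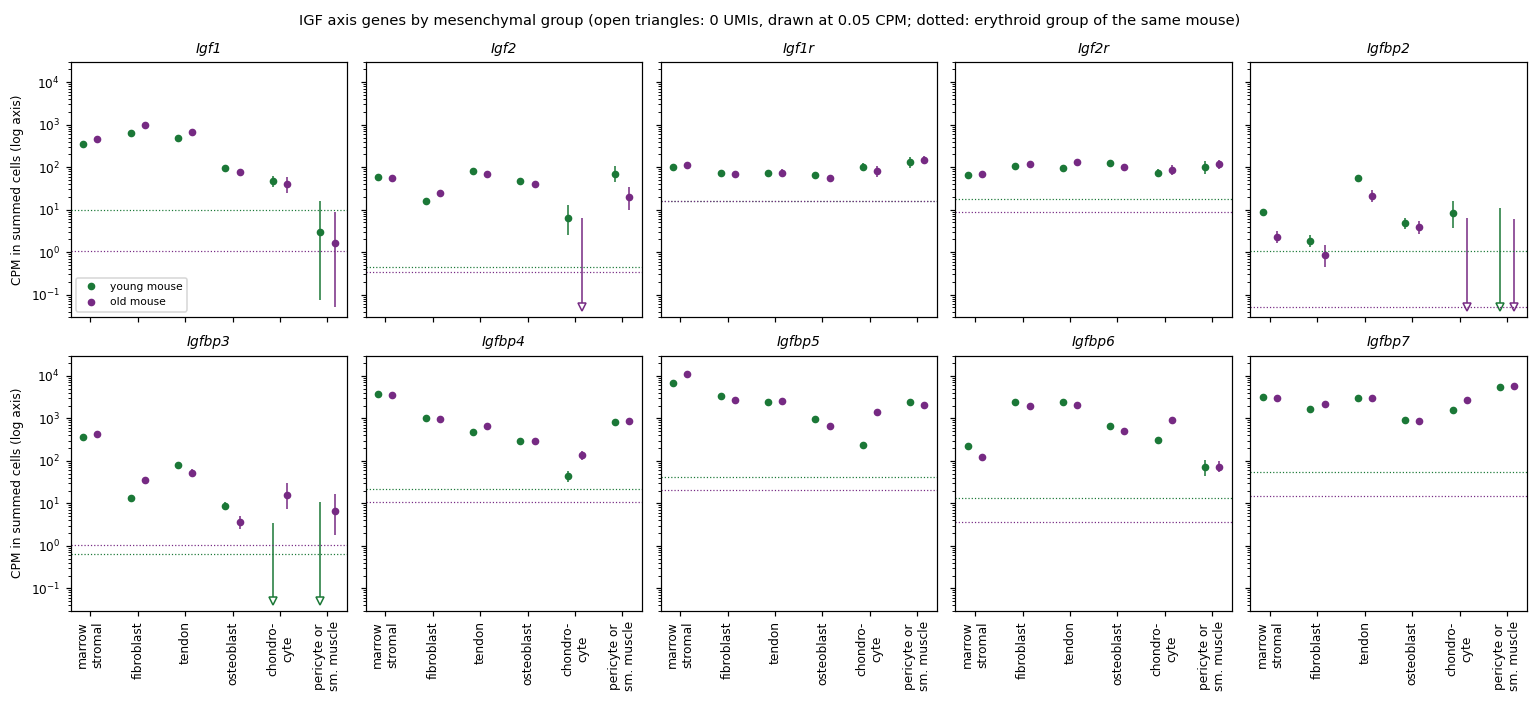
Level of each IGF gene (CPM, log axis) in the 6 mesenchymal groups of the young (green) and the old mouse (purple), with 95% Poisson intervals as bars. Open triangles mark 0 UMIs and dotted lines the level in erythroid cells of the same mouse. Igf1 spans 1.63 to 962 CPM, while the points of Igf1r and Igf2r stay between 56.5 and 148 CPM.

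Several binding proteins differed widely between groups. The marrow stromal group, whose cells support blood formation and hold the leptin receptor, was the highest for Igfbp3, Igfbp4 and Igfbp5. Igfbp3, the main carrier of IGF in serum, stood at 359 CPM (young) and 429 (old) in the marrow stromal group, 79.5 and 52.0 in tendon cells, 13.3 and 34.7 in fibroblasts, and 8.64 and 3.60 in osteoblasts. Chondrocytes and pericytes or smooth muscle cells had 0 UMIs (young) and 9 and 4 UMIs (old). Marrow stromal cells were higher than tendon cells, next in order, by 2.39 ± 0.47 on the log2 scale (edgeR adjusted p = 0.00256; 0.0886 with DESeq2), and fibroblasts were higher than osteoblasts, their next group, by 1.83 ± 0.54 (adjusted p = 0.0236, edgeR; 0.298 with DESeq2). The difference of marrow stromal cells from the mean of the others was 4.88 ± 0.36 (adjusted p = 1.50e-06, edgeR), 6.53 for the young mouse alone and 4.64 for the old one, a value that depends on how groups at 0 are fitted. In tendon cells it was 2.01 ± 0.50 (adjusted p = 0.0249, edgeR; 0.0860 with DESeq2), 4.11 for the young mouse alone and 1.16 for the old one. Igfbp3 was seen in a part of the marrow stromal cells, since 37.0% of young and 40.3% of old cells held a UMI at 2000 UMIs per cell, against 0.385% and 0.709% of erythroid cells.

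Igfbp4, the substrate of the protease PAPP-A, stood at 3776 and 3521 CPM in marrow stromal cells, 1002 and 968 in fibroblasts, 838 and 888 in pericytes or smooth muscle cells, 483 and 647 in tendon cells, 287 and 291 in osteoblasts, and 43.0 and 136 in chondrocytes. Both mice gave this order. The steps from marrow stromal cells to fibroblasts (log2 1.73 ± 0.30, edgeR adjusted p = 7.90e-04) and from osteoblasts to chondrocytes (1.69 ± 0.33, adjusted p = 0.00524, edgeR) passed, and the 3 between them did not. Against the mean of the others, Igfbp4 was higher in marrow stromal cells (2.97 ± 0.19) and fibroblasts (0.89 ± 0.22) and lower in osteoblasts (-1.15 ± 0.25) and chondrocytes (-3.18 ± 0.31, -4.07 for the young mouse alone and -2.50 for the old one). Nearly every marrow stromal cell held an Igfbp4 UMI at equal depth (96.9% and 96.4%), against 29.3% and 35.6% of osteoblasts and 4.23% and 2.13% of erythroid cells.

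Igfbp5, the binding protein that also attaches to bone mineral and matrix, reached 6818 CPM (young) and 10907 CPM (old) in marrow stromal cells. It stood at 3332 and 2663 CPM in fibroblasts, 2460 and 2539 in tendon cells, 2395 and 2037 in pericytes or smooth muscle cells, 952 and 647 in osteoblasts, and 235 and 1408 in chondrocytes. The marrow stromal group was higher than the mean of the others by 2.24 ± 0.36 (log2, edgeR adjusted p = 5.17e-04), but no neighbouring step passed, and the step to fibroblasts was 1.35 ± 0.55 (adjusted p = 0.0676, edgeR). Osteoblasts were lower (-1.59 ± 0.47, adjusted p = 0.0360, edgeR), at -1.05 for the young mouse alone and -2.02 for the old one. Chondrocytes were lower as well (-1.56 ± 0.49, adjusted p = 0.0473, edgeR), by values far apart in the young (-3.26) and the old mouse (-0.61), and the call was lost at a limit of 10% mitochondrial UMIs (0.0503) and without the replicate block (0.0657).

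Igfbp6, which binds IGF2 with preference over IGF1, was low in marrow stromal cells, where Igfbp3 to Igfbp5 were high. It stood at 2485 and 2046 CPM in tendon cells and 2401 and 1923 in fibroblasts, at 674 and 507 in osteoblasts, 306 and 919 in chondrocytes, 219 and 121 in marrow stromal cells, and 70.5 and 73.2 in pericytes or smooth muscle cells. Tendon cells and fibroblasts did not differ beyond their spread (log2 0.06 ± 0.40, edgeR adjusted p = 0.952), whereas fibroblasts and osteoblasts did (1.81 ± 0.42, adjusted p = 0.00640, edgeR), as did chondrocytes and marrow stromal cells (2.20 ± 0.44, adjusted p = 0.00297, edgeR). Against the mean of the others, Igfbp6 was higher in tendon cells (2.51 ± 0.28) and fibroblasts (2.43 ± 0.28) and lower in marrow stromal cells (-2.16 ± 0.38) and in pericytes or smooth muscle cells (-3.53 ± 0.46). The marrow stromal UMIs sat in few cells, with 97.4% (young) and 97.9% (old) in the 10% of cells that held the most, and doublet calls were 146 of the 3199 young marrow stromal cells.

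Igfbp7, a secreted protein of the family with low affinity for IGF and known from vessel walls, was highest in pericytes or smooth muscle cells, at 5617 CPM (young) and 5626 (old). This was above the marrow stromal group (3216, 2950) by 0.96 ± 0.21 on the log2 scale (edgeR adjusted p = 0.00597). Tendon cells (3086, 3042), chondrocytes (1589, 2712) and fibroblasts (1699, 2230) followed, and osteoblasts were lowest (891, 865), 1.08 ± 0.21 under fibroblasts (adjusted p = 0.00210, edgeR). Against the mean of the others, Igfbp7 was higher in pericytes or smooth muscle cells (1.39 ± 0.14) and lower in osteoblasts (-1.66 ± 0.18). All 54 young and 98.4% of old pericytes or smooth muscle cells of at least 2000 UMIs held an Igfbp7 UMI after thinning.

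Igfbp2, which is found in serum and in growing tissues, was sparse. Tendon cells had 140 young and 40 old UMIs (56.8 and 21.4 CPM), marrow stromal cells 179 and 40 (9.06 and 2.30 CPM), osteoblasts 44 and 36 (4.88 and 3.92 CPM) and fibroblasts 42 and 13 (1.84 and 0.850 CPM). Chondrocytes had 9 and 0 UMIs, and pericytes or smooth muscle cells had none in either mouse, where a count of 0 allows up to 8.82 CPM (young) and 4.88 (old). Tendon cells were higher than marrow stromal cells, the next group, by 3.00 ± 0.37 on the log2 scale (edgeR adjusted p = 1.79e-04). No other neighbours passed, and the difference of tendon cells from the mean of all others (4.97 ± 0.46) includes the group at 0. Only 2.95% and 3.40% of tendon cells held an Igfbp2 UMI at equal depth. Cells in no group held 59.5% of all young and 29.1% of all old Igfbp2 UMIs.

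Over the 6 binding proteins, a marrow stromal cell of 2000 UMIs held UMIs of a median of 3 of these genes in both mice. The median was also 3 in fibroblasts, tendon cells and pericytes or smooth muscle cells. It was 2 in osteoblasts, 1 (young) and 2 (old) in chondrocytes and 0 in erythroid cells. At least 3 of them were seen in 94.3% and 93.6% of marrow stromal cells, 77.1% and 73.4% of fibroblasts and 31.4% and 29.1% of osteoblasts. Together they took 14397 CPM (young) and 17930 CPM (old) in the marrow stromal group, against 2818 and 2318 CPM in osteoblasts and 133 and 50.4 CPM in erythroid cells. The other groups lay between, with 8449 and 7819 CPM in fibroblasts, 8650 and 8347 in tendon cells and 8920 and 8631 in pericytes or smooth muscle cells. Only young chondrocytes were below osteoblasts (2181 CPM, and 5191 in the old mouse). The mixture differed between groups. Igfbp5 gave 47.4% and 60.8% of these UMIs in marrow stromal cells, Igfbp7 63.0% and 65.2% in pericytes or smooth muscle cells, and Igfbp6 28.7% and 24.5% in tendon cells against 1.52% and 0.677% in marrow stromal cells.

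Of the 40 other genes of the pathway that were listed (further binding proteins, related receptors, proteases, adaptors, growth hormone signalling, FOXO factors, IGF2 mRNA binding proteins and imprinted genes), 36 passed the filter on low counts. In marrow stromal cells 16 were higher (25.6% of all genes tested) and 9 lower (16.9%). The widest difference was that of Pappa, which encodes PAPP-A, the protease that cuts IGFBP4. It stood at 1040 CPM (young) and 609 (old) in marrow stromal cells and at no more than 13.7 CPM in any other mesenchymal group, a log2 difference of 6.65 ± 0.22 (edgeR adjusted p = 3.90e-09). Stc2, encoding stanniocalcin 2, an inhibitor of PAPP-A, was lower there (-3.63 ± 0.32, edgeR adjusted p = 5.96e-06), with 0.709 and 0.518 CPM. Stc2 was higher in chondrocytes (31.1 and 33.1 CPM, log2 3.57 ± 0.30, adjusted p = 1.03e-05, edgeR) and osteoblasts (1.82 ± 0.21). Htra1, a serine protease that cuts IGFBP5, was higher in tendon cells (0.99 ± 0.15), chondrocytes (0.75 ± 0.15) and osteoblasts (0.73 ± 0.15).

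Pappa UMIs were more frequent in marrow stromal cells that held UMIs of its substrate Igfbp4, and also in those that held UMIs of Igfbp3. Of young marrow stromal cells with an Igfbp4 UMI at 2000 UMIs, 79.4% also held a Pappa UMI, and of those without, 15.4%. In the old mouse the shares were 63.3% and 24.6%. Cells without an Igfbp4 UMI were few, 91 of 2926 (young) and 65 of 1806 (old), and both genes were counted in the same library. For Igfbp3, the shares of marrow stromal cells with and without its UMI that held Pappa were 85.9% and 72.4% (young) and 72.2% and 55.0% (old). In fibroblasts with an Igfbp4 UMI the share was 1.36% (young) and 2.57% (old), and in those without it 2.20% and 1.70%, so the mice differed in direction.

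Growth hormone receptor (Ghr) was higher in marrow stromal cells as well, at 315 and 284 CPM against 14.7 to 97.5 CPM in the other groups (log2 2.49 ± 0.088, edgeR adjusted p = 6.23e-09), and Insr, the insulin receptor, by 0.48 ± 0.13. Of the 5 genes of growth hormone and STAT5 signalling, 4 were higher there, led by Stat5a (1.49 ± 0.13) and Stat5b (1.27 ± 0.17). Among adaptors and kinases 5 of 10 were higher, among them Pik3r1 (1.21 ± 0.12), a regulatory subunit of PI3 kinase, and 2 were lower. Both tested IGF2 mRNA binding proteins, Igf2bp2 (1.85 ± 0.16) and Igf2bp3 (0.96 ± 0.29), were higher. Igfals, the third part of the serum IGF complex, stood at 1.77 and 2.53 CPM only, and it was at 0 in chondrocytes and in pericytes or smooth muscle cells. It owed passing the filter on low counts to the marrow stromal sums. Its fitted difference there (3.38 ± 1.07) is therefore no support for a higher level, although it is among the genes counted as higher in marrow stromal cells. Foxo3, a factor that AKT holds out of the nucleus, was lower (-0.38 ± 0.11). Of 8 imprinted genes, 1 was higher in marrow stromal cells and 4 were lower, led by Meg3 (-2.96 ± 0.25) and Mest (-1.97 ± 0.36).

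In tendon cells 9 pathway genes were higher (8.15% of all genes tested) and 0 lower (2.64%). Of the 9, 5 were imprinted genes, led by H19 (log2 3.38 ± 0.40, edgeR adjusted p = 3.39e-04; 81.5 and 158 CPM) and the cell cycle inhibitor Cdkn1c (1.88 ± 0.23). H19 was also higher in osteoblasts (1.93 ± 0.45). Pericytes or smooth muscle cells had 2 higher (10.4% of all genes) and 10 lower (8.16%). Among the latter were Pappa (-2.79 ± 0.86, on 3 UMIs in all), Ghr (-2.31 ± 0.20), Cdkn1c (-1.80 ± 0.37) and the adaptor genes Grb10 (-1.48 ± 0.21) and Irs1 (-1.29 ± 0.33). Chondrocytes had 7 higher (10.8% of all genes), among them Peg3 (2.10 ± 0.29) and Foxo1 (1.99 ± 0.22), and 4 lower (7.74%). Fibroblasts had 5 higher (16.1% of all genes), led by the imprinted Dlk1 (2.55 ± 0.78) and Ndn (1.93 ± 0.11), and 2 lower (8.8%). Osteoblasts had 7 higher (12.7%) and 4 lower (7.56%). Igfbp1, Igfbpl1, Insrr and Igf2bp1 were at or near 0 in all groups and were not tested.

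**Figure D3:**
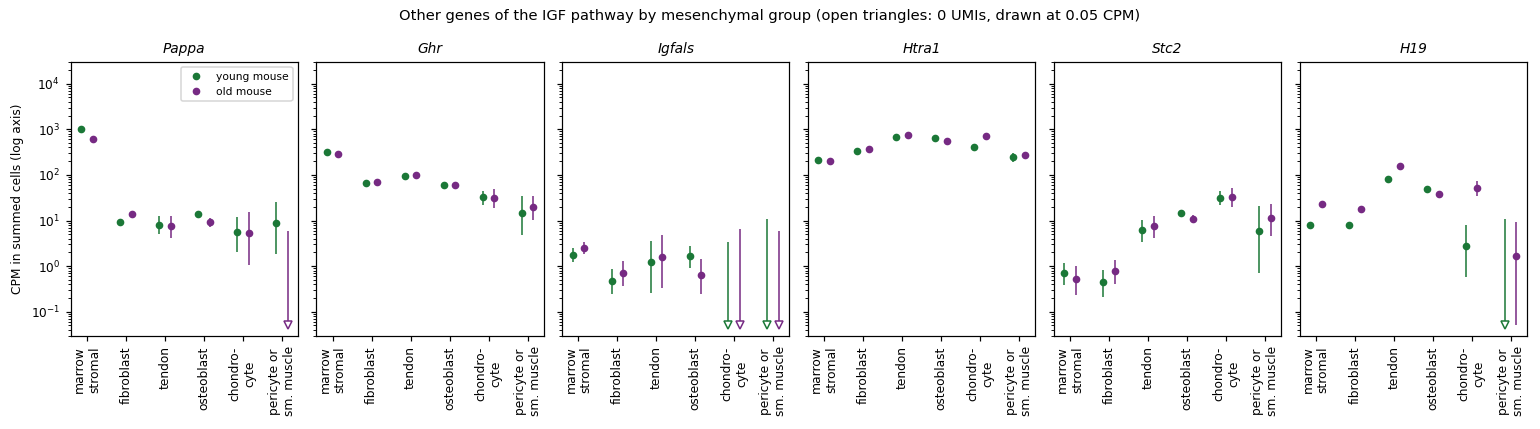
Level (CPM, log axis) of 6 further genes of the IGF pathway in the 6 mesenchymal groups of the young (green) and the old mouse (purple), with 95% Poisson intervals as bars and open triangles for 0 UMIs. Pappa stands at 1040 and 609 CPM in marrow stromal cells and at no more than 13.7 CPM in the other groups, and Stc2 is highest in chondrocytes, at 31.1 and 33.1 CPM.

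As a description over the 12 sums, the gene whose log2(CPM + 1) followed Igf1 most closely was Sh3d19 (Pearson r = 0.976), followed by Rassf2 (0.971). For Igfbp4 these were Rab8b (0.985) and Marc2 (0.981), and Rab8b (0.948) also led for Igfbp5, with Arnt (0.940). Igfbp3 was followed by Slc22a15 (0.970) and by the chemokine gene Cxcl14 (0.958), and Igfbp6 by the transcription factor gene Nfix (0.968) and by Uqcc2 (0.951). The closest for Igf2 were Zfp251 (0.951) and Armcx1 (0.938), for Igf1r Isyna1 (0.947) and Ndrg2 (0.942), and for Igf2r Plec (0.926) and P4ha3 (0.918). Igfbp2 was closest to Nppc (0.908) and Nubp2 (0.906) and Igfbp7 to Napg (0.931) and Map1lc3b (0.923). These were the highest of 8707 or 8708 genes, and sums of 1 mouse share a library.

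The old and the young library were compared within each group to ask whether IGF genes differed with age. With 1 mouse per age there is no test, and the intervals given are 95% intervals of counting error only. Of 60 gene and group values, 54 had at least 20 UMIs, and 14 of these were past 1.5-fold, 7 higher and 7 lower in the old mouse. By group this was 3 of 10 in marrow stromal cells (12.1% of all genes past 1.5-fold), 3 of 10 in fibroblasts (12.3%), 2 of 10 in tendon cells (16.3%), 1 of 10 in osteoblasts (14.9%), 4 of 7 in chondrocytes (31.2%) and 1 of 7 in pericytes or smooth muscle cells (28.5%). The median log2 ratio of all genes was at most 0.06 except in osteoblasts (-0.11), where scaling by TMM factors brought it to 0.01.

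Igfbp5 in marrow stromal cells rested on the most UMIs, 134656 (young) and 189374 (old). The level was 1.60-fold that of the young mouse (log2 0.68, interval 0.67 to 0.69), and it lay between 0.64 and 0.71 under the alternatives. The log2 ratio of Igfbp5 was -0.32 in fibroblasts, -0.56 in osteoblasts and 0.05 in tendon cells, and whether these differ from the marrow stromal value was not tested. Igf1 was above the young level in 3 groups, by 0.56 in fibroblasts, 0.44 in tendon cells and 0.39 in marrow stromal cells, all under 1.5-fold, and below it by 0.32 in osteoblasts (log2 -0.32, interval -0.47 to -0.18).

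Igfbp3 differed in opposite directions between groups. In fibroblasts it went from 304 young UMIs to 530 old UMIs (13.3 and 34.7 CPM, log2 1.38, interval 1.17 to 1.59), in osteoblasts from 78 to 33 (8.64 and 3.60 CPM, log2 -1.26, interval -1.90 to -0.66) and in tendon cells from 196 to 97 (log2 -0.61, interval -0.98 to -0.25). The summed level of the marrow stromal markers in fibroblasts was 1395 CPM (young) and 2324 CPM (old), and its part in the fibroblast value was not tested. Igfbp2 was below the young level in marrow stromal cells (log2 -1.98, interval -2.51 to -1.47), tendon cells (-1.41, -1.95 to -0.89) and fibroblasts (-1.11, -2.13 to -0.19). In tendon cells, without the 1% of cells with the most Igfbp2 UMIs, the ratio was -0.45, and in marrow stromal cells only 30 and 4 UMIs remained. Igf2 was 0.63 above the young level in fibroblasts (interval 0.41 to 0.84) and below it in pericytes or smooth muscle cells (24 and 12 UMIs, -1.85, interval -2.99 to -0.80), where thinning to equal depth turned it to 0.17.

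Igfbp6 in marrow stromal cells had a log2 ratio of -0.85 (interval -0.93 to -0.77), and -0.34 after removal of doublets. In chondrocytes the old mouse was above the young one for Igfbp5 (log2 2.58, interval 2.38 to 2.79), Igfbp4 (1.66, 1.12 to 2.21), Igfbp6 (1.59, 1.39 to 1.79) and Igfbp7 (0.77, 0.67 to 0.87). These 4 values rested on 33 old cells, and with a lead of 2 markers required, 77 young and 14 old chondrocytes gave 1.20, 1.19, 2.20 and 1.02. The osteoblast list stood at 6451 CPM (young) and 11467 CPM (old) in chondrocytes, and its part was not tested. Igf1r and Igf2r stayed under 1.5-fold in all 6 groups.

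**Figure D4:**
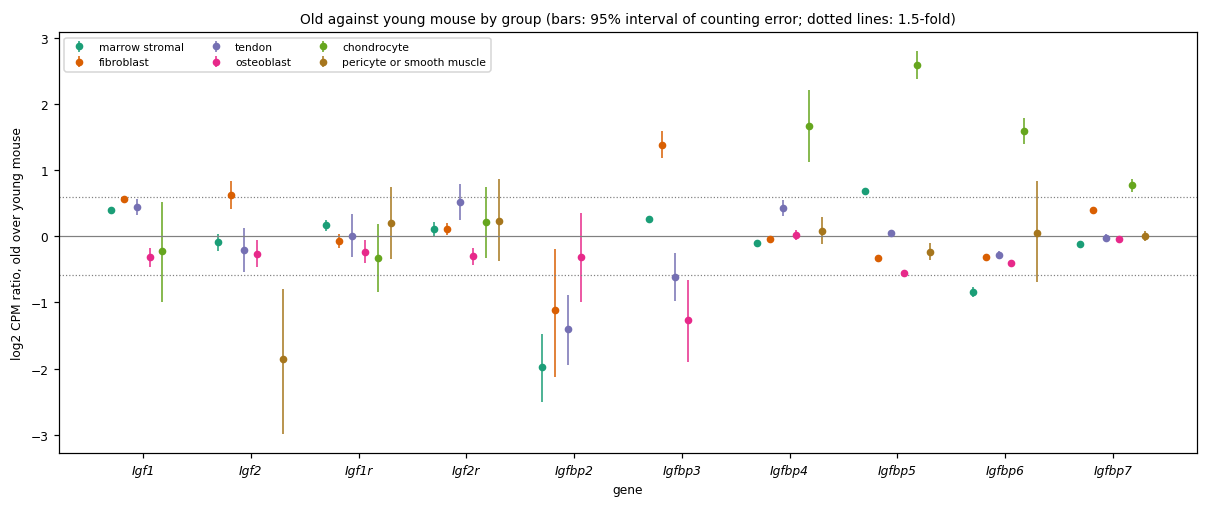
Log2 ratio of CPM, old over young mouse, for each IGF gene with at least 20 UMIs, by mesenchymal group (colours), with 95% intervals of counting error and dotted lines at 1.5-fold. Igfbp2 is below 0 in all 4 groups shown, Igfbp3 is at 1.38 in fibroblasts and -1.26 in osteoblasts, and the chondrocyte points of Igfbp4 to Igfbp7 are at 0.77 or above.

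Of the pathway genes, Pappa was below the young level in marrow stromal cells (1040 and 609 CPM, log2 -0.77, interval -0.81 to -0.74), where its substrate Igfbp4 was close to it (-0.10, interval -0.12 to -0.09). H19 was above the young level in marrow stromal cells (log2 1.53), fibroblasts (1.18) and tendon cells (0.95), but below it, by under 1.5-fold, in osteoblasts. It sat in few cells: among marrow stromal cells without an Igf2 UMI at equal depth, 0.376% (young) and 1.09% (old) held it. Of those with an Igf2 UMI, 1.51% and 4.67% did. Cdkn1c was below the young level in osteoblasts (-0.84) and above it in fibroblasts (0.62). How many genes of the pathway list were past 1.5-fold is not given here.

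CD24 is the surface protein that the study followed in cells of the osteoblast lineage, and CD24+ cells were compared with CD24- cells over the mesenchymal groups. A cell was CD24+ when its antibody count was above a threshold set per library, which gave 598 young and 215 old CD24+ mesenchymal cells. Antibody counts were not scaled for depth, and CD24+ cells held more RNA UMIs per cell in both mice. In the young mouse the CD24+ cells held 6784130 UMIs and the 6842 CD24- cells 48727956. In the old mouse the CD24+ cells held 3477555 and the 3801 CD24- cells 41402746. Of the 10 IGF genes, 6 were lower in CD24+ cells (7.6% of all genes lower, 17.3% changed either way) and 0 were higher. Igf1 was at 220 CPM in CD24+ and 460 in CD24- cells of the young mouse, and at 284 and 570 in the old (log2 -0.98 ± 0.066, edgeR adjusted p = 7.88e-04). Igfbp3 (-0.99 ± 0.18, adjusted p = 0.0142), Igfbp4 (-0.89 ± 0.062, adjusted p = 8.31e-04) and Igfbp5 (-0.86 ± 0.053, adjusted p = 6.10e-04) were lower by similar amounts in edgeR's test. Igfbp6 (-0.46 ± 0.062, edgeR adjusted p = 0.00562, and 0.267 without the replicate block) and Igfbp7 (-0.42 ± 0.051, adjusted p = 0.00403, edgeR) were lower by less. Igf2, Igf1r, Igf2r and Igfbp2 did not pass. With the CD24 threshold set over mesenchymal cells, the values were nearer to 0, at -0.57 for Igf1, -0.22 for Igfbp4 and -0.32 for Igfbp5, which passed, and at -0.29 for Igfbp3 (adjusted p = 0.0908, edgeR), -0.17 for Igfbp6 (0.113) and -0.13 for Igfbp7 (0.0578), which did not. The fit had 4 sums and 1 residual degree of freedom, so the spread comes mostly from what genes share.

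CD24+ and CD24- cells differed in their groups. Osteoblasts made up 42.6% of young and 44.7% of old CD24+ cells but 12.8% and 13.4% of CD24- cells, and marrow stromal cells 27.1% and 30.2% of CD24+ against 44.4% and 51.4% of CD24- cells. When CD24- cells of each mouse were weighted to the group mix of the CD24+ cells, the log2 ratio of Igf1 was -0.47 (young) and -0.31 (old), that of Igfbp4 -0.46 and -0.60, that of Igfbp5 -0.39 and -0.55, that of Igfbp6 -0.07 and -0.05 and that of Igfbp7 -0.19 and -0.23. For Igfbp3 the mice were far apart, at -0.28 (young) and -1.02 (old). Within the osteoblast group, none of the 10 passed edgeR's test (0.953% of 11861 genes did, and 2 of the 10, Igfbp2 and Igfbp5, had an unadjusted p under 0.05). Igfbp5 there was at 1153 CPM in CD24+ and 867 in CD24- cells of the young mouse and at 803 and 616 in the old, a log2 difference of 0.38 ± 0.077 with adjusted p = 0.0529 (edgeR), opposite in sign to the value over all groups.

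Among the 35 pathway genes tested, 3 were higher and 7 lower in CD24+ cells (17.3% of all genes changed either way, 7.6% lower). Stc2 (log2 2.09 ± 0.26, edgeR adjusted p = 0.00415) was higher, and Pappa (-0.95 ± 0.092, adjusted p = 0.00199, edgeR), Ghr (-0.71 ± 0.072) and the imprinted Ndn (-0.83 ± 0.079) were lower. At the group mix of the CD24+ cells, Stc2 was 0.85 and 0.74 above the weighted CD24- level (log2, young and old) and Pappa was at -0.47 and -0.75. Within osteoblasts, Stc2 stood at 19.1 CPM in CD24+ and 12.3 in CD24- cells of the young mouse but at 7.76 and 11.7 in the old, in different directions.

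**Figure D5:**
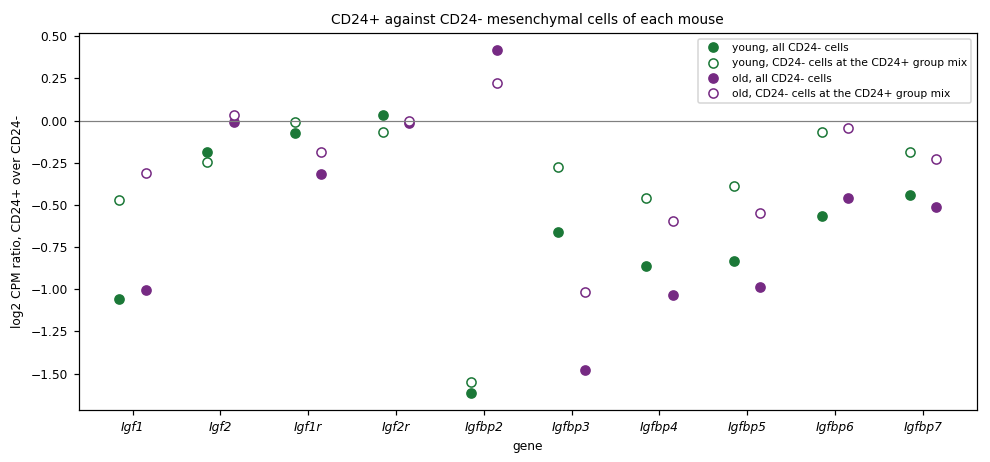
Log2 ratio of CPM, CD24+ over CD24- mesenchymal cells, for each IGF gene in the young (green) and the old mouse (purple), against all CD24- cells (filled) and against CD24- cells weighted to the group mix of the CD24+ cells (open). For Igf1 the weighted points lie at -0.47 and -0.31, closer to 0 than the filled ones, and for Igfbp6 at -0.07 and -0.05.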

How the data were processed

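RNA and CD24 antibody UMIs of 1 young and 1 old mouse were deposited by the authors as raw counts per gene and barcode, aligned to mm10 per the submitters' processing notes with Cell Ranger. Barcodes with at least 200 genes and at most 20% mitochondrial UMIs were kept. A cell joined a group when it held at least 3 of the 6 markers of a list (5 for erythroid cells) and more than of any of the other 13 lists, so groups rest on markers and not on a deposited annotation. Doublets were predicted with Scrublet in scanpy 1.11.5 and kept, and removed as an alternative. The members, pathway lists and tests were chosen with earlier results of these data known.

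Counts summed per mouse and group were fitted with edgeR 4.0.16 in R 4.3.3 (quasi-likelihood test, TMM factors, low counts filtered, mouse as a block, 5 residual degrees of freedom, and 1 for CD24), with Benjamini-Hochberg adjustment at 0.05. The block comes from the design, since all sums of a library share 1 mouse. The spread in these tests is how far the 2 mice, which also differ in age, vary in the group differences. CD24+ cells lay above an Otsu threshold on log antibody counts in each library. Old and young were compared by CPM with exact intervals, which cover counting error only, and called past 1.5-fold with at least 20 UMIs. Cells thinned to 2000 UMIs gave shares at equal depth, without 770 young and 496 old cells below that depth. Alternatives were DESeq2 1.42.0, no TMM factors, no filter, no block, and other cell limits. The test was checked on simulated counts. All 10 genes are named, pathway genes by the 2 largest differences that passed per list, apart from 1 gene that is not reported here, and the 2 most correlated genes per member.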

Additional observations from a re-analysis of the deposited data

Results flagged for a closer look

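Igf2 stood on opposite sides of the young level in 2 groups of the old mouse, at a log2 ratio of 0.63 in fibroblasts and -1.85 in pericytes or smooth muscle cells. Igfbp3 did so at 1.38 in fibroblasts against -1.26 in osteoblasts and -0.61 in tendon cells, and Igfbp6 at 1.59 in chondrocytes against -0.85 in marrow stromal cells. With 1 mouse per age these differences between groups were not tested.

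For 3 values the mice lay on opposite sides of the mean of the other groups, each by more than 1.5-fold, again untested. Values that turned sign by less in either mouse, such as Igfbp3 in osteoblasts (0.32 young, -3.19 old), are not listed. Igf2 in fibroblasts stood at -1.32 (young) and 0.77 (old), Igfbp2 in chondrocytes at 1.22 (9 UMIs) and -3.27 (0 UMIs), and Igfbp6 in chondrocytes at -0.68 and 1.26. Cells in no group, which no comparison used, held Igfbp2 at 63.5 CPM in the young mouse, above its level in each mesenchymal group of that mouse.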

How the results depend on the processing

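Of the 29 differences called across groups, 9 lost their call under at least 1 alternative and none of the 29 turned sign with 1 mouse left out, a value with no test, so no counts were made there. With CD24, 6 genes were called, 3 with a threshold set over mesenchymal cells only and 0 in the osteoblast group alone by edgeR, where Igfbp5 turned to 0.38 (adjusted p = 0.0529) and Igfbp6 to 0.13 (0.763). Igfbp2, not called at -0.79, was called at 0.90 (0.0167) in CD24+ cells when markers needed 2 UMIs. The old to young ratio of Igf2 in pericytes or smooth muscle cells turned from -1.85 to 0.17 in cells thinned to 2000 UMIs. The cause was not tested for any of these.

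Without the replicate block, 27 differences across groups, 86 between pairs and 5 for CD24 were called, against 29, 89 and 6 with it. The lead of 2 markers was chosen after seeing the data. Low counts limit Igfbp2 in all groups, with at most 44 UMIs per mouse outside tendon and marrow stromal cells. In the old mouse these 2 groups had 40 UMIs each. Low counts also limit Igf2 in chondrocytes and in pericytes or smooth muscle cells (7 and 36 UMIs in both mice). Each age is 1 mouse, and the chondrocyte and pericyte or smooth muscle groups of the old mouse hold 33 and 64 cells.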

Other observations

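Igfbp2 was carried by very few cells. Of 1187 Igfbp2 UMIs in the young mouse, 75 cells with at least 3 UMIs each held 87.5%, and of 182 in the old mouse, 19 cells held 75.8%. These cells also held more of 4 genes chosen after their values had been seen. Matn4, a matrix protein of cartilage, stood at 843 CPM in them against 20.7 in all other young cells, and at 989 against 19.4 in the old. Sfrp2, a secreted WNT modulator, stood at 1149 against 71.4 and 387 against 122 CPM, the potassium channel gene Kcnk2 at 204 against 19.2 and 83.5 against 24.4, and the R-spondin receptor gene Lgr5 at 95.3 against 9.22 and 35.2 against 9.49. Prg4, which encodes lubricin, was lower in them, at 829 against 2180 and 611 against 1891 CPM. No test was run on these values.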
